A study of Mus musculus with 12 samples.

Results

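The collagen genes of the mouse heart were followed through myocardial infarction (MI) with and without a transgene for the long non-coding RNA CCRR. Members were all genes whose name on the array is Col, a number, the letter a and a number, which gave 44 genes measured by 91 probes among 36981 genes and 56556 probes in all. Of these, 31 collagen genes were tested because in at least 1 group all 3 arrays had their brightest probe well above background, against 19761 tested genes in all. By class, 8 of 11 fibrillar genes, 5 of 6 type IV (basement membrane) genes, 6 of 9 FACIT genes and 12 of 18 other genes were tested. The 13 that were not tested were Col6a4, Col6a5, Col6a6, Col9a1, Col9a3, Col10a1, Col11a1, Col11a2, Col19a1, Col23a1, Col24a1, Col28a1 and Col4a3, and 5 of them (Col6a6, Col9a3, Col10a1, Col24a1 and Col28a1) were not well above background on any array. At the other end, 20 collagen genes were well above background on all 12 arrays.

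The 4 groups of 3 heart samples were transgenic hearts after infarction (TG+MI), transgenic hearts without it (TG, labelled as CCRR transgenosis), wild-type hearts after infarction (WT+MI) and wild-type hearts (WT). The strain is given as C57/BL6 for the WT+MI and WT hearts. The strain of the transgenic hearts, the promoter of the transgene, the time since infarction, the region of the heart and the age of the mice are not stated in these sources. Nothing states that the 3 samples of a group are separate animals, so a p-value here measures only the spread between these samples. RNA was taken from fresh heart tissue and read on single-colour Agilent arrays, and no spot on them is named CCRR, so the transgene itself was not checked.

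Collagens are the main fibrous proteins of the extracellular matrix, built of 3 chains wound into a triple helix in which glycine returns at a fixed step along the chain. Fibrillar collagens (types I, II, III, V, XI, XXIV and XXVII) form the cables that carry load between cardiomyocytes and, after infarction, fill the scar. Type IV forms the sheet of basement membranes around cardiomyocytes and vessels, FACIT collagens sit on the surface of fibrils, and the other classes form filaments, short-chain networks or membrane-bound chains. Newly made chains are hydroxylated and glycosylated, trimmed outside the cell, cross-linked by lysyl oxidases and later degraded by metalloproteinases.

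The glycine repeat can be read in some of the array's own probes. A glycine codon starts with GG, so a run of the triplet Gly-X-Y shows GG at every ninth base. At least 6 such pairs in a row, with none missing, were present in 4 of the 91 collagen probes and in 8 of all 56605 probes with a sequence. The 4 are given 5′ to 3′ in the transcript's direction, with the repeated GG in capitals, because they show the feature that makes these genes a family.
Col15a1: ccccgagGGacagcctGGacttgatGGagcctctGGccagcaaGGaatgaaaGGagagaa
Col6a3: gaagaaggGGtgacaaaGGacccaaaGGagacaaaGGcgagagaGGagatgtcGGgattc
Col5a3: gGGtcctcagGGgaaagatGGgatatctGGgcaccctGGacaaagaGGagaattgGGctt
Col11a2: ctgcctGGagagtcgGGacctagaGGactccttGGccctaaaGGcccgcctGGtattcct
On build mm9 the array's annotation places them at chr4:47283786-47283845 on the plus strand, chr1:92689602-92690594 on the minus strand, chr9:20590066-20590795 on the minus strand and chr17:34189287-34189453 on the plus strand, in the order printed. The last 3 of these intervals are longer than the 60 letters of the probe. The Col15a1 probe represents its gene below, and the other 3 are second probes of theirs.

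Values are log2 signals relative to each array's 75th percentile, so a level of 0 is the 75th percentile of that array's probes. That percentile lay between 138 and 260 units of processed signal, and 47 to 55.2% of probes were well above background. No spot was saturated. The arrays were hybridised on 2 slides. All WT and WT+MI samples, TG 1 and TG 2 were on slide 1, and TG 3 and the TG+MI samples were on slide 2, so the effect of the slide and that of the group cannot be told apart between TG+MI and WT+MI. For each array, the deviation of each gene from its own mean over the 12 arrays was taken and the median over the 31 tested collagen genes computed. It was -0.06, -0.13 and -0.92 on the TG+MI arrays, 0.82, 0.56 and 0.46 on the TG arrays, -0.17, -0.08 and -0.13 on the WT+MI arrays, and -0.27, -0.13 and -0.21 on the WT arrays. On this median the collagen genes were therefore highest on the TG arrays, and TG+MI 3 stood below every other array. By class, TG+MI 3 was low for the fibrillar genes (-1.45) and the other genes (-0.86). For the FACIT genes it was at 0.01 and for the type IV genes at 0.20. TG 1 was the highest of all 12 arrays for 18 of 31 genes and TG+MI 3 the lowest for 15 of 31. Most values are given on all 12 arrays, with counts of calls and some values also given without 1 of these 2 arrays.

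The comparison of infarcted with uninfarcted wild-type hearts asks how the collagen genes stood after infarction. They moved in both directions. In all, 6 genes of the type IV, fibrillar, FACIT and type VIII kinds rose, led by Col12a1 and Col27a1, and 7 genes fell, led by Col4a4, Col14a1 and Col22a1, while the main scar collagens Col1a1, Col1a2 and Col3a1 passed no test on their representing probes. In limma's test across all genes, with Benjamini-Hochberg adjustment and a threshold of 0.05, the 13 calls among 31 collagen genes stand beside 47.9% called among all tested genes (18.6% higher and 29.4% lower). The groups did not overlap for 11 collagen genes with higher and 10 with lower WT+MI values, against 25% and 38.7% of all genes. The median difference was 0.03 over the 31 genes and -0.14 over all tested genes. In whole tissue, fewer cells of a type and less RNA per cell cannot be told apart.

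Among the fibrillar genes, the chains of types I and III, which make up most of the heart's collagen fibres, were not called on the probes that represent them. Col1a2 was 4.73, 5.07 and 5.02 on the WT+MI arrays, against 5.11, 5.31 and 5.10 on the WT arrays. Col3a1 was 4.56, 4.60 and 4.53 on the WT+MI arrays, against 4.41, 4.68 and 4.48 on the WT arrays. The groups overlapped for Col3a1 and lay apart by a small gap for Col1a2, whose 3 WT+MI values were the lower ones. The differences were -0.23 ± 0.25 (SE, adjusted p = 0.472) for Col1a2, 0.04 ± 0.43 (adjusted p = 0.943) for Col3a1 and 0.03 ± 0.34 (adjusted p = 0.941) for Col1a1.

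The fibrillar genes that rose were dimmer ones. Col27a1, best known from developing cartilage, was -1.55, -2.05 and -2.05 on the WT+MI arrays, against -3.54, -3.34 and -3.60 on the WT arrays. Only 1 of the 3 WT arrays was well above background for Col27a1, so the size of its difference is limited by background. WT+MI was the only group with all 3 arrays well above background for it, so it entered the test through that group alone. Col5a2, a chain of type V, which starts and limits the width of type I fibrils, was -0.69, -1.13 and -1.20 on the WT+MI arrays, against -2.0, -1.60 and -1.91 on the WT arrays. Neither gene's groups overlapped, and the differences were 1.61 ± 0.44 (adjusted p = 0.0123) and 0.83 ± 0.28 (adjusted p = 0.034). The other type V chain, Col5a1, was 2.50, 2.45 and 2.52 against 2.06, 2.13 and 2.12 in WT, without overlap and with a difference of 0.39 that missed the threshold (adjusted p = 0.41). Only 1 of the 8 tested fibrillar genes, Col1a2, had a negative difference.

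The 2 ubiquitous basement membrane chains rose together. Col4a1 was 5.13, 4.87 and 5.14 on the WT+MI arrays, against 4.33, 4.45 and 4.40 on the WT arrays. Col4a2 was 4.09, 3.99 and 4.23 on the WT+MI arrays, against 3.38, 3.43 and 3.44 on the WT arrays. All WT+MI values lay above all WT values for both chains, by 0.65 ± 0.14 (adjusted p = 0.0045) for Col4a1 and 0.69 ± 0.12 (adjusted p = 0.00148) for Col4a2, which form 1 protein in a fixed ratio. The 2 genes lie head to head. In RefSeq on GRCm38.p6 the start of Col4a2 on the plus strand and that of Col4a1 on the minus strand are 21 bases apart, within chr8:11312801-11312830, shown on the plus strand with the bases between the starts, both included, in capitals.
Col4a1/Col4a2: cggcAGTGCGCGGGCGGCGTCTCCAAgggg

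Another type IV chain went the other way. Col4a4, part of the network best known from the kidney's glomerulus, was -3.88, -2.60 and -2.59 on the WT+MI arrays, against -0.93, -0.52 and -0.80 on the WT arrays. Every WT+MI array lay below every WT array, and the difference was -2.27 ± 0.40 (adjusted p = 0.00133). Its second probe gave -2.04. Col4a5 and Col4a6 were not called.

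FACIT genes split. Col12a1, a collagen of tendon and of healing tissue that coats type I fibrils, was -2.26, -2.57 and -3.22 on the WT+MI arrays, against -4.63, -5.64 and -4.81 on the WT arrays, none of which was well above background. It rose by 2.34 ± 0.31 (adjusted p = 0.000398). Where 1 group is at background on every array, its level is only a bound, and the fold is given against the lowest signal well above background on those arrays, or the probe's own signal where higher. For Col12a1 this is at least 2.17-fold higher in WT+MI.

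Col14a1, the FACIT typical of resting connective tissue, was -4.62, -5.54 and -4.62 on the WT+MI arrays, none well above background, against -3.92, -3.02 and -3.59 on the WT arrays. Col22a1, a collagen of the junction between muscle and tendon, was -4.43, -3.28 and -4.21 on the WT+MI arrays, again none well above background, against -2.38, -2.91 and -2.59 on the WT arrays. Neither gene's groups overlapped. Col14a1 fell (difference -1.42 ± 0.31, adjusted p = 0.00446, at least 1.02-fold lower), Col22a1 fell (-1.35 ± 0.32, adjusted p = 0.00597, at least 1.86-fold lower), and Col20a1 fell (-0.55 ± 0.18, adjusted p = 0.0307).

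The type VI chains, whose beaded filaments surround cells, gave a lower signal on their representing probes for 2 of 3 tested members. Col6a1 was 2.64, 3.08 and 3.10 on the WT+MI arrays, against 3.91, 4.08 and 4.03 on the WT arrays. Col6a2 was -0.87, -0.55 and -0.47 on the WT+MI arrays, against 0.30, 0.40 and 0.33 on the WT arrays. Both were lower on every WT+MI array (-1.07 ± 0.18, adjusted p = 0.00107, and -0.97 ± 0.26, adjusted p = 0.0104), but a second Col6a2 probe disagreed, as described with the other probes. Among the remaining classes, Col8a1, a short-chain collagen of vessel walls, was 4.03, 4.07 and 4.28 on the WT+MI arrays, against 3.36, 3.38 and 3.66 on the WT arrays, and rose by 0.66 ± 0.19 (adjusted p = 0.0159). Col25a1, a membrane-bound collagen of neurons, fell by 1.14 on the log2 scale (adjusted p = 0.0278, at least 1.34-fold lower). WT was the only group with all 3 arrays well above background for Col25a1, so it entered the test through that group alone. Its call was lost under normexp background correction, with no filter on dim probes and with the mean of all its probes. Col18a1, the precursor of endostatin, was 1.90, 1.34 and 1.49 on the WT+MI arrays, against 0.27, 0.60 and 0.49 on the WT arrays. Its groups did not overlap, but the difference of 1.12 ± 0.45 had an adjusted p of 0.062. The related Col15a1, which like Col18a1 lies at the border of basement membranes, was -2.38, -2.64 and -2.52 on the WT+MI arrays, against -3.46, -3.16 and -2.90 on the WT arrays, again without overlap and not called (0.66 ± 0.31, adjusted p = 0.101).

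Of the 13 calls, 9 were kept whichever single array was left out: Col12a1, Col14a1, Col22a1, Col27a1, Col4a1, Col4a2, Col4a4, Col6a1 and Col6a2. Under normexp background correction Col12a1 (0.32, adjusted p = 0.0679) and Col14a1 (-0.14, adjusted p = 0.452) were not called, and with the mean of all probes Col22a1 (-0.44, adjusted p = 0.305) and Col6a2 (-0.57, adjusted p = 0.0661) were not.

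Markers of other cells moved in the same comparison. A summed level is the sum over a list's genes of the signal relative to the 75th percentile, on a linear scale. The sum over the resident fibroblast markers was 227 to 293 on the WT+MI arrays and 395 to 484 on the WT arrays, with 5 of 9 genes lower and 1 higher, and that over the neutrophil markers was 142 to 328 against 4.99 to 12.5. The sum was 35.6 to 38 against 56.6 to 62.3 for smooth muscle and pericytes and 48.1 to 53.5 against 63.1 to 67.4 for endothelium, with 2 of 6 and 2 of 5 genes lower. For atrial genes it was 235 to 676 against 54.4 to 55.9, with 1 of 4 higher. Only Nppa lay above WT on every WT+MI array, at 8.5, 8.25 and 7.86 against 5.72, 5.67 and 5.71. Myl4 was 7.15, 0.66 and 0.83 on the WT+MI arrays, against 1.39, 1.33 and 1.12 on the WT arrays. WT+MI 1 stood apart there, with the atrial Myl7 at 6.68, while WT+MI 2 and WT+MI 3 had -4.48 and -4.02. Their part in the collagen differences was not tested.

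**Figure D1:**
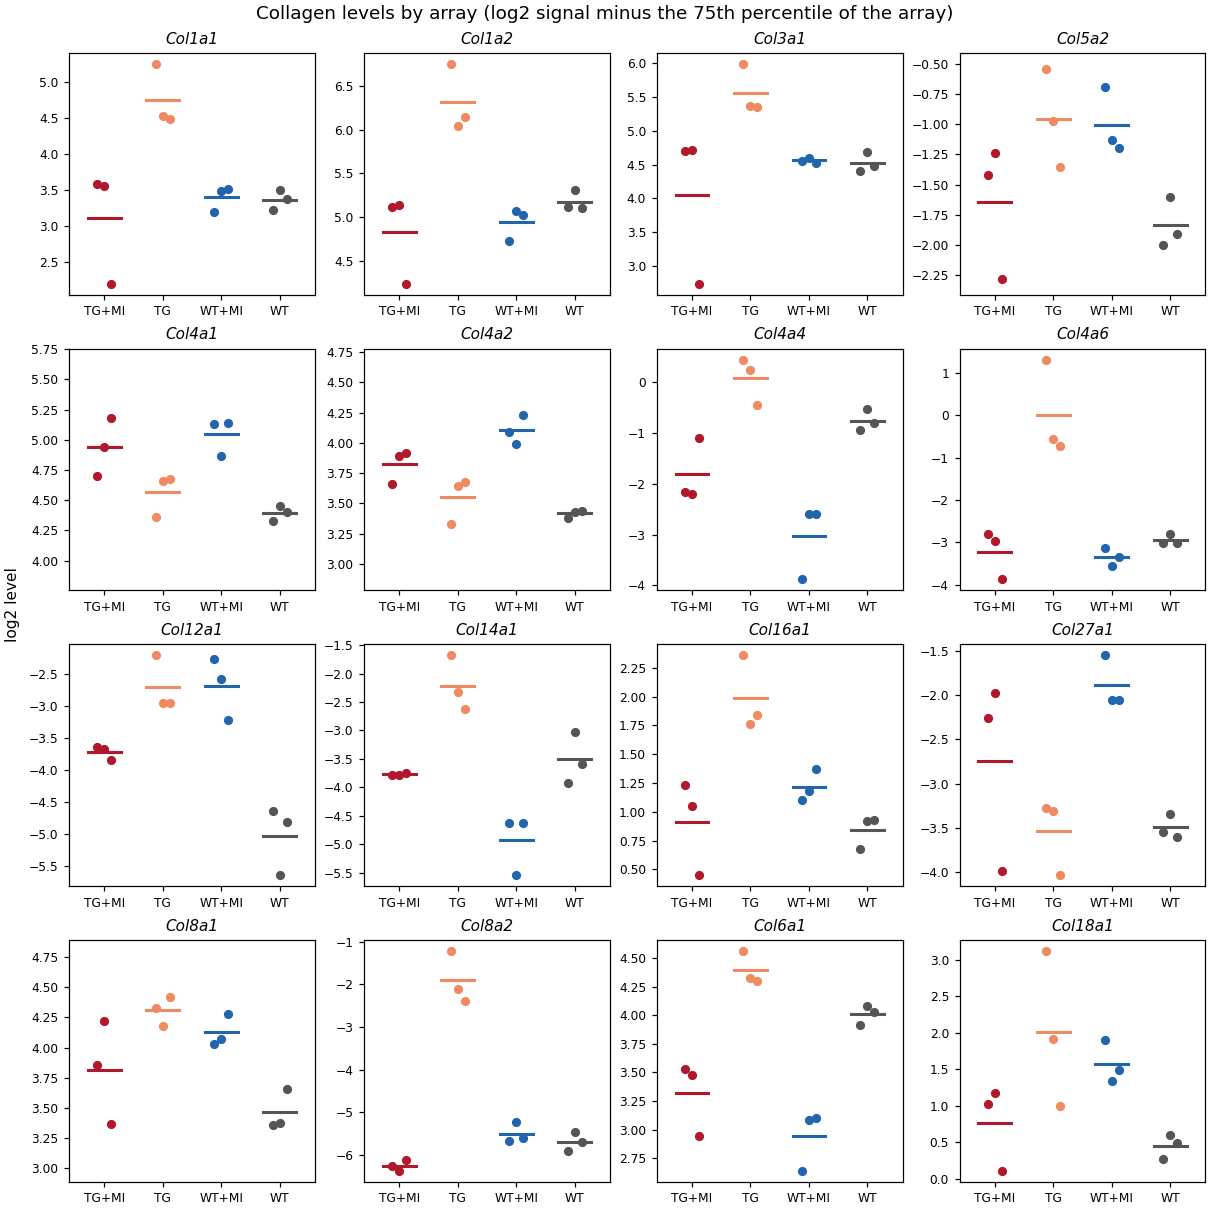
Level of 16 collagen genes (log2 signal relative to the array's 75th percentile, vertical axes) in TG+MI, TG, WT+MI and WT hearts, with 1 point per array and bars at the group means. Col4a1 and Col4a2 are higher in WT+MI than in WT on every array, Col8a2 is near -2 on the TG arrays and below -5 on all others, and 1 TG+MI array lies below the other 2 for Col1a1, Col1a2 and Col3a1.

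Between WT+MI and WT, the Col3a1 call depended on which probe was read, while no tested probe of the type I chains was called. More than 1 tested probe was available for 12 collagen genes, with 17 probes beside the representing ones, and each was tested by itself in a fit over 29870 probes, of which 46.2% were called between WT+MI and WT. For Col3a1 both other probes rose after infarction, by 1.91 ± 0.60 (adjusted p = 0.0239) and 1.51 ± 0.50 (adjusted p = 0.0315), while the representing probe gave 0.04. On mm9 the representing probe lies at chr1:45405589-45405648 and the others at chr1:45381765-45381824 and chr1:45373784-45373843, which is 23.8 and 31.8 kb upstream on the gene's own strand. The first of them was -0.54, -0.53 and -0.44 on the WT+MI arrays, against -2.59, -2.26 and -2.37 on the WT arrays, so every WT+MI array was higher. Whether these upstream probes lie in exons or introns was not determined.

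Col6a3 showed the same pattern, with 1.13 ± 0.32 (adjusted p = 0.0162) and 1.08 ± 0.38 (adjusted p = 0.0389) on probes 26.8 and 26.9 kb upstream, against 0.36 on the representing probe. The upstream Col1a2 probes gave 0.99 (adjusted p = 0.106) and 0.90 (adjusted p = 0.119), against -0.23. One of the other 2 Col6a2 probes gave 0.30 and the second -1.03, against -0.97 on the representing probe. For Col15a1 the representing probe, with its run of glycine codons, gave 0.66, and the second probe gave -1.0 (adjusted p = 0.135), in the opposite direction but not called. That second probe fell by 1.94 in TG+MI against TG (adjusted p = 0.0437), where the representing one gave -0.47 (adjusted p = 0.376). In all, 13 of 17 probes had the sign of their gene's representing probe in WT+MI minus WT, and 6 probes of 4 genes lay more than 1 log2 unit away from it. In TG minus WT 17 of 17 had the same sign and none lay more than 1 unit away, but several were close to 0, among them 0.31 and 0.09 for Col3a1, against 1.04 on the representing probe. In TG+MI minus TG it was 11 of 17, with 8 probes of 6 genes more than 1 unit away.

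The gap between 2 probes of a gene can be read within each array, where the array's scaling cancels. For the first upstream Col3a1 probe the gap to the representing probe was -5.83, -5.20 and -5.77 on the TG+MI arrays, against -6.93, -7.99 and -8.09 on the TG arrays. It was -5.10, -5.13 and -4.97 on the WT+MI arrays, against -7.00, -6.94 and -6.85 on the WT arrays. The gap was thus nearer to 0 on every infarcted array, by 2.07 in the transgenic hearts and 1.86 in the wild-type hearts. A gap that was higher on every infarcted array was found for 8 of 17 probes between TG+MI and TG, for 7 between WT+MI and WT, and for 6 in both. Over all genes with several tested probes, it was found for 14.1% and 23.2% of 10103 probes. The opposite, a gap lower on every infarcted array, was found for 1 of the 17 in each genotype, the second Col15a1 probe (-1.47 in the transgenic and -1.66 in the wild-type hearts), beside 10.2% and 17.2% of the 10103. Probes of 1 gene share their representing probe, so they are not independent. The exact permutation test, two-sided, gives 0.1 for each gap without overlap, the smallest p that 3 against 3 allows, and these gaps were singled out after their values were seen.

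**Figure D2:**
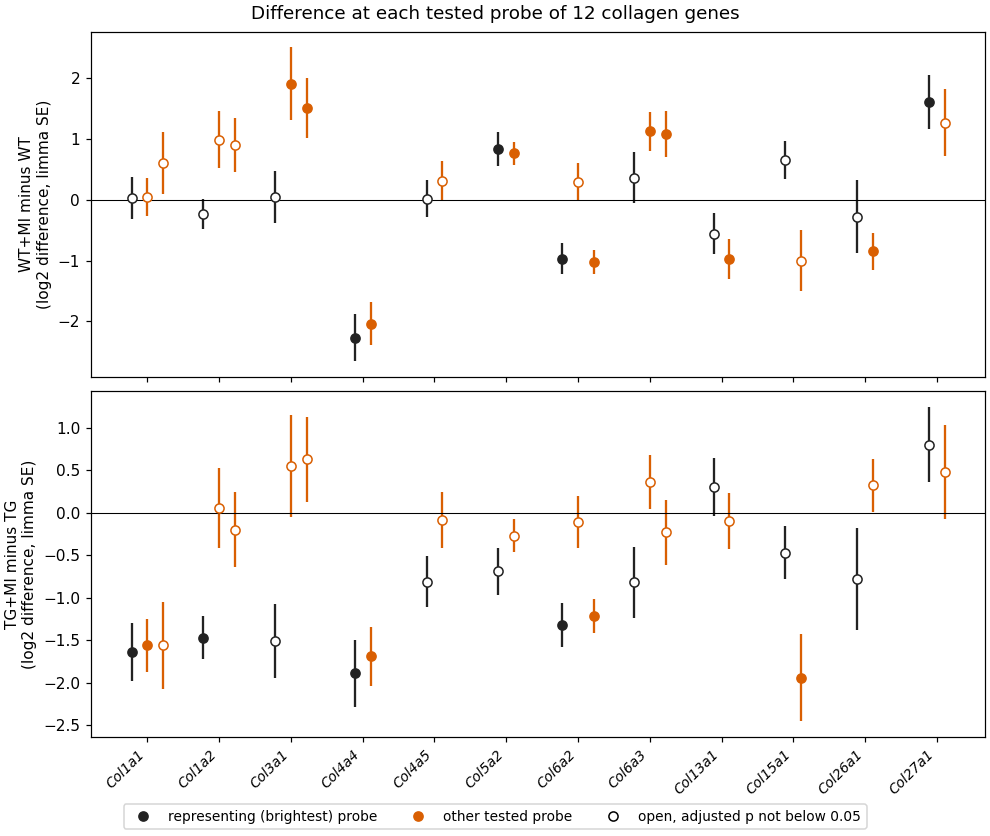
Difference (log2, vertical axes, with limma's SE) of each tested probe of the 12 collagen genes with several tested probes, for WT+MI minus WT and TG+MI minus TG. Black points are the representing probes, orange points the others, and open points were not called; for Col3a1 in WT+MI minus WT the representing probe lies at 0.04 and the others at 1.91 and 1.51.

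The comparison of transgenic with wild-type hearts without infarction asks what the transgene goes with at rest. Here the collagen genes lay mostly on 1 side. The TG mean was higher for 25 of 31 genes, 6 rose and 0 fell, beside 2.62% of all genes called (1.49% higher, 1.13% lower), and the groups did not overlap for 21 genes, all higher in TG, against 12.6% of all genes higher and 20.9% lower. At an unadjusted p below 0.05, 15 were higher and 0 lower. The median difference was 0.74 over the 31 genes and -0.06 over all genes. It was 1.0 for the fibrillar, 0.74 for the type IV, 0.99 for the FACIT and 0.45 for the other genes, and the membrane-bound Col13a1, Col17a1 and Col25a1 all had differences below 0.

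Col8a2, a chain of the short-chain network best known from the cornea, gave the largest difference. It was -1.22, -2.11 and -2.40 on the TG arrays, against -5.91, -5.46 and -5.70 on the WT arrays, none of which was well above background. It was well above background on the 3 TG arrays and on no other array, so it entered the test through that group alone. It rose by 3.78 ± 0.26 (adjusted p = 0.000221, at least 3.70-fold higher in TG). Over 24 alternative settings its difference ranged from 0.72 to 4.03. The probe that represents Col8a2 lies at chr4:125991441-125991500 on the plus strand of mm9. A second Col8a2 probe, at chr4:125992149-125992208 on the same strand, was well above background on 0 of 12 arrays and differed by 0.14, so the Col8a2 result rests on 1 probe. Its partner chain Col8a1 was 4.33, 4.18 and 4.42 on the TG arrays, against 3.36, 3.38 and 3.66 on the WT arrays, and rose by 0.84 ± 0.19 (adjusted p = 0.0477).

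Col4a6, which with Col4a5 forms a type IV network of smooth muscle and some epithelia, was 1.32, -0.56 and -0.72 on the TG arrays, against -3.01, -2.79 and -3.01 on the WT arrays. It rose by 2.95 ± 0.47 (adjusted p = 0.0117), with no overlap. Col4a5 was 2.12, 2.01 and 1.91 on the TG arrays, against 1.17, 1.31 and 1.34 on the WT arrays, also without overlap but not called. In contrast, Col4a1 and Col4a2, which had risen in WT+MI, differed by 0.17 (adjusted p = 0.58) and 0.13 (adjusted p = 0.619) between TG and WT.

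The start regions of Col8a2 and Col4a6 are shown because these genes had the largest called differences between TG and WT, and that of Col4a5 because it is the neighbour of Col4a6. They are the 250 bases before the RefSeq start on GRCm38.p6, 5′ to 3′ along each gene, at chr4:126286544-126286793 on the plus strand for Col8a2, chrX:141474077-141474326 on the minus strand for Col4a6 and chrX:141475169-141475418 on the plus strand for Col4a5. The starts of Col4a5 and Col4a6 lie 1343 bases apart and point away from each other. Capitals mark GGGCGG and CCAAT, searched on both strands (CCGCCC and ATTGG).
Col8a2: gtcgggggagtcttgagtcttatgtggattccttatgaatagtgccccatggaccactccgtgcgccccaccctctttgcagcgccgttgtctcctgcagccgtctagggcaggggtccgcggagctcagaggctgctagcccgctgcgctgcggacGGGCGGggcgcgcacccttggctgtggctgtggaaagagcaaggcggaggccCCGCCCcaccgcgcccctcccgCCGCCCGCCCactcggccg
Col4a6: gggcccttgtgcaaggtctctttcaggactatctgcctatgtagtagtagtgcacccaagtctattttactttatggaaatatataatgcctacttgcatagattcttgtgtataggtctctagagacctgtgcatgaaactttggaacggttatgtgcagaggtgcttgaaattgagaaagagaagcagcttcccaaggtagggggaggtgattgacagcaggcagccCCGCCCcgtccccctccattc
Col4a5: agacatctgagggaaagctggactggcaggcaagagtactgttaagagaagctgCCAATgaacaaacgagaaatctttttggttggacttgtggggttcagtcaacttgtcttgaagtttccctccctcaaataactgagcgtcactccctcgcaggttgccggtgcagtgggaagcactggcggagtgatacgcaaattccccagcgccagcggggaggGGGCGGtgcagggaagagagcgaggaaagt
Col8a2 holds 4 GGGCGG matches, of which 2 overlap, and Col4a6 and Col4a5 hold 1 each, while CCAAT is present once, in Col4a5. RefSeq's table has entries for 35 of the 44 collagen genes, in 38 starts. GGGCGG was present in 22 of these 38 (57.9%) and in 32.7% of all 32851 starts of the same length. CCAAT was present in 13 (34.2%), against 33.8% of all, and TATAAA (or TTTATA) in 5 (13.2%), against 12.4%. These counts describe letters in the windows.

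Col12a1 was -2.20, -2.95 and -2.94 on the TG arrays, against -4.63, -5.64 and -4.81 on the WT arrays, and rose by 2.33 ± 0.31 (adjusted p = 0.00695, at least 2.15-fold higher in TG). Col16a1, a FACIT made by fibroblasts and smooth muscle, was 2.36, 1.76 and 1.84 on the TG arrays, against 0.68, 0.92 and 0.93 on the WT arrays, and rose by 1.14 ± 0.21 (adjusted p = 0.023). All 6 tested FACIT genes had positive differences. Col14a1 was -1.68, -2.33 and -2.63 on the TG arrays, against -3.92, -3.02 and -3.59 on the WT arrays, which gave 1.30 ± 0.31 with an adjusted p of 0.0601.

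On their representing probes, the main fibre chains were higher on every TG array. Col1a2 was 6.75, 6.04 and 6.14 on the TG arrays, against 5.11, 5.31 and 5.10 on the WT arrays, and rose by 1.13 ± 0.25 (adjusted p = 0.044). Its other tested probes gave 0.31 (adjusted p = 0.788) and 0.46 (adjusted p = 0.649), and with the mean of all its probes the call was lost. Col3a1 was 5.99, 5.36 and 5.35 on the TG arrays, against 4.41, 4.68 and 4.48 on the WT arrays. This probe did not overlap between the groups, yet its difference of 1.04 ± 0.43 had an adjusted p of 0.242, and that of Col5a1, 0.97 ± 0.37, one of 0.206. The upstream Col3a1 probes gave only 0.31 and 0.09, and the first of them, at -0.94, -2.63 and -2.74 on the TG arrays against -2.59, -2.26 and -2.37 on the WT arrays, was above WT on TG 1 alone. Col1a1 was 5.25, 4.52 and 4.49 on the TG arrays, against 3.22, 3.50 and 3.38 on the WT arrays, and its adjusted p was 0.0617. Its other 2 tested probes each gave 1.36, of which 1 was called (adjusted p = 0.0464) and the other was not (adjusted p = 0.198). TG+MI 3, at 2.74 for Col3a1 and 0.95 for Col5a1, enters the spread that the fit pools over all groups. Without it the adjusted p was 0.0103 for Col3a1, 0.00382 for Col5a1 and 0.00716 for Col1a1, and 10 collagen genes were called.

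Of the other classes, Col18a1 was 3.12, 1.91 and 1.0 on the TG arrays, against 0.27, 0.60 and 0.49 on the WT arrays. The 3 TG values were spread over more than 2 log2 units but all lay above the WT values, and the difference of 1.55 ± 0.45 was not called (adjusted p = 0.111). Col15a1 differed by 0.60 (adjusted p = 0.342) and the filament chain Col6a1 by 0.38 (adjusted p = 0.292), both without overlap.

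Only Col12a1, Col4a6 and Col8a2 were called whichever single array was left out, of which Col12a1 was lost under normexp background correction (0.24, adjusted p = 0.327), and the count was 3 without WT 1, WT 2, WT 3 or TG 1. Within slide 1, which holds TG 1, TG 2 and the WT arrays, 11 genes were called. Markers of several cell types also differed in TG. The sum over the valve and cartilage markers was 6.32 to 13.8 on the TG arrays and 1.29 to 1.68 on the WT arrays, with 4 of 6 genes higher. For the activated fibroblast markers it was 70.6 to 124 in TG and 52.4 to 62.2 in WT, with 3 of 6 higher, and Lrrc15 was not well above background on any array. For the atrial markers it was 476 to 1490 in TG and 54.4 to 55.9 in WT, with 2 of 4 higher, and for the adipocyte markers 5.9 to 99.8 in TG and 0.585 to 3.05 in WT, with 0 of 3 called. Of the smooth muscle and pericyte markers 2 of 6 were higher, Cnn1 by 3.57 (adjusted p = 0.0247) and Myh11 by 1.75 (adjusted p = 0.044), while the sum was 49 to 69.7 in TG and 56.6 to 62.3 in WT. The sum was 488 to 565 against 395 to 484 for resident fibroblasts, with 1 of 9 higher, and 3.41 to 5.67 against 2.46 to 2.93 for Schwann cells, with 0 of 3 called. The part of these tissues in the collagen differences was not tested.

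**Figure D3:**
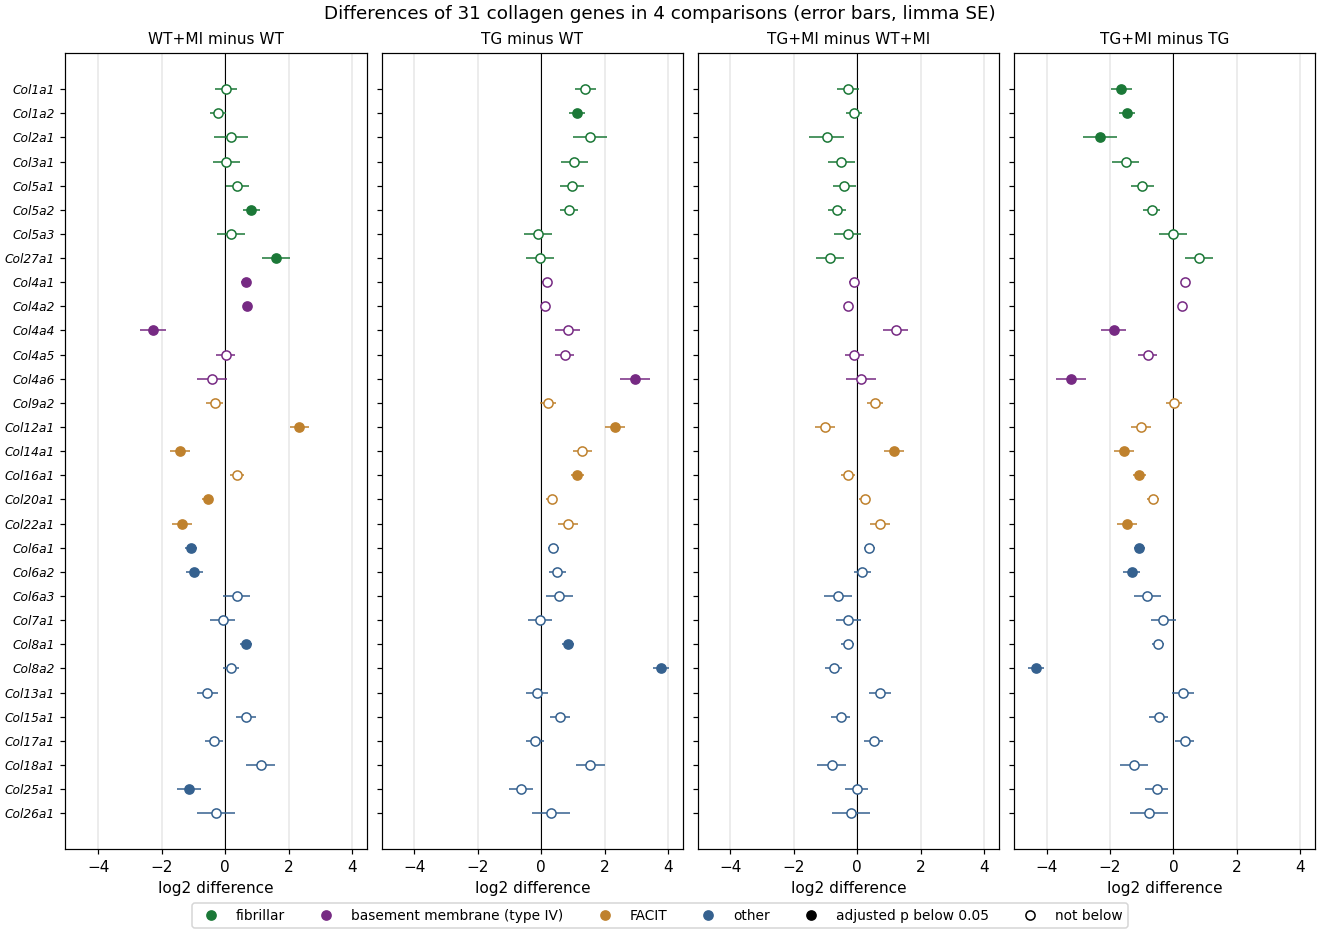
Difference (log2, horizontal axes, with limma's SE) of the 31 tested collagen genes in 4 comparisons, coloured by class, with filled points where the adjusted p is below 0.05. In TG minus WT 25 of 31 points lie above 0, and in TG+MI minus TG 25 of 31 lie below 0.

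In transgenic hearts, infarction went with lower signals on most of the collagen genes' representing probes, which is the comparison of TG+MI with TG. The difference was negative for 25 of 31 genes, 0 rose and 11 fell, beside 8.83% of all genes called (5.19% higher, 3.64% lower). The groups did not overlap for 16 genes with lower and 1 with higher TG+MI values, against 12.8% and 17.1% of all genes. At an unadjusted p below 0.05, 2 genes were higher and 19 lower. The median difference was -0.82 over the 31 genes and 0.04 over all genes.

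The 3 fibrillar genes that fell were those of types I and II. Col1a1 was 3.58, 3.56 and 2.20 on the TG+MI arrays, against 5.25, 4.52 and 4.49 on the TG arrays, a difference of -1.64 ± 0.34 (adjusted p = 0.0168). Its other 2 tested probes each gave -1.56 (adjusted p = 0.0142 and 0.0841). The Col1a1 call was lost with the mean of all its probes and without TG 1. Col1a2 was 5.12, 5.14 and 4.24 on the TG+MI arrays, against 6.75, 6.04 and 6.14 on the TG arrays, and fell by 1.47 on the log2 scale (adjusted p = 0.00795). Its other 2 tested probes gave 0.05 (adjusted p = 0.966) and -0.20 (adjusted p = 0.815), and the call was lost with the mean of its probes. On the representing probes both genes lay lower on all 3 TG+MI arrays, with TG+MI 3 the lowest. Col2a1, the collagen of cartilage, was -2.31, -1.91 and -3.73 on the TG+MI arrays, against 0.75, -0.59 and -1.17 on the TG arrays (-2.31 ± 0.54, adjusted p = 0.0261). Col3a1, at 4.70, 4.72 and 2.74 against 5.99, 5.36 and 5.35 in TG, did not overlap either, but the difference of -1.51 ± 0.43 had an adjusted p of 0.0563. Its 2 upstream probes had the opposite sign, at 0.55 (adjusted p = 0.603) and 0.63 (adjusted p = 0.472).

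Among the genes that had stood out in TG, Col8a2 was -6.26, -6.37 and -6.13 on the TG+MI arrays, none well above background, against -1.22, -2.11 and -2.40 on the TG arrays. It fell by 4.34 on the log2 scale (adjusted p = 4.61e-05, at least 4.73-fold lower in TG+MI), while its second, background-level probe differed by -0.07. Col4a6 was -2.81, -2.96 and -3.87 on the TG+MI arrays, against 1.32, -0.56 and -0.72 on the TG arrays, and fell by 3.23 (adjusted p = 0.00352). Col8a2 was at background on the TG+MI arrays as on all 6 wild-type arrays, and the TG+MI values of Col4a6 overlapped those of both wild-type groups. Col4a4 was -2.15, -2.19 and -1.10 on the TG+MI arrays, against 0.45, 0.24 and -0.44 on the TG arrays, and fell by 1.89 (adjusted p = 0.0174). Col4a1 gave a positive difference of 0.37 that was not called (adjusted p = 0.138), and so did Col4a2 (0.28, adjusted p = 0.187).

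The FACIT genes that fell were Col14a1, with -1.56 ± 0.31 (adjusted p = 0.015), Col22a1, with -1.47 ± 0.32 (adjusted p = 0.0197) and Col16a1, with -1.08 ± 0.21 (adjusted p = 0.0139). Col12a1 was -3.64, -3.66 and -3.84 on the TG+MI arrays, against -2.20, -2.95 and -2.94 on the TG arrays. These did not overlap, and the difference of -1.02 had an adjusted p of 0.0696. The filament chain Col6a1 was 3.53, 3.48 and 2.94 on the TG+MI arrays, against 4.56, 4.32 and 4.30 on the TG arrays, and fell by 1.08 (adjusted p = 0.00665). Col6a2 fell by 1.32 (adjusted p = 0.0128), while its other tested probes gave -1.21 (adjusted p = 0.00722) and -0.11 (adjusted p = 0.853). Negative but not called were Col18a1 (-1.24, adjusted p = 0.117), Col5a1 (-0.98, adjusted p = 0.123) and Col8a1 (-0.49, adjusted p = 0.139).

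Col1a2, Col4a6, Col6a1 and Col8a2 were called whichever single array was left out, and the count was 4 without TG 1. TG 3 is the 1 TG array on the slide of the TG+MI arrays. With the slide as a term in the fit, Col8a2 alone was called (-3.85, adjusted p = 0.00224), and on that slide alone none was (Col8a2 adjusted p = 0.0611, with 1 TG array and limma's pooled spread). The valve and cartilage markers had a sum of 0.949 to 1.42 on the TG+MI arrays and 6.32 to 13.8 on the TG arrays, with 4 of 6 lower. For the activated fibroblast markers it was 47.6 to 61.4 on the TG+MI arrays and 70.6 to 124 on the TG arrays, with 3 of 6 lower. For the resident fibroblast markers it was 290 to 378 and 488 to 565, with 3 of 9 lower, and for the atrial markers 74.9 to 322 and 476 to 1490. Cnn1 and Myh11 were lower by 2.51 and 1.86 (adjusted p = 0.0456 and 0.0175), 2 of the 6 smooth muscle and pericyte markers, and the Schwann cell sum was 1.42 to 2.5 on the TG+MI arrays and 3.41 to 5.67 on the TG arrays, with 2 of 3 lower. Their part in the collagen differences was not tested.

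Between the infarcted groups, TG+MI against WT+MI, 1 of 31 collagen genes rose and 0 fell, beside 12.2% of all genes called (7.77% higher, 4.39% lower). At an unadjusted p below 0.05, 3 were higher and 4 lower. The groups did not overlap for 3 genes with higher and 5 with lower TG+MI values, against 22.7% and 11.3% of all genes. The gene that rose was Col14a1, at -3.78, -3.78 and -3.75 on the TG+MI arrays, against -4.62, -5.54 and -4.62 on the WT+MI arrays, with a difference of 1.15 ± 0.31 (adjusted p = 0.0427). No WT+MI array was well above background for it, and the bound on its fold is under 1, so no fold is given. Under another background correction its sign turned, to -0.10. No collagen gene was called when any 1 of the TG+MI arrays, TG 2, WT+MI 1, WT+MI 2 or the WT arrays was left out.

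Other members came close to the threshold or lay well within the spread. Col12a1, at -3.64, -3.66 and -3.84 on the TG+MI arrays and -2.26, -2.57 and -3.22 on the WT+MI arrays, was -1.03 (adjusted p = 0.0553). Col4a4, at -2.15, -2.19 and -1.10 on the TG+MI arrays and -3.88, -2.60 and -2.59 on the WT+MI arrays, was 1.21 (adjusted p = 0.0661). Neither gene's groups overlapped. Col1a1, Col1a2 and Col3a1 differed by -0.29, -0.11 and -0.51 (adjusted p = 0.581, 0.793 and 0.433). Col4a1 and Col4a2 differed by -0.11 and -0.28 (adjusted p = 0.634 and 0.142), Col6a1 by 0.38 (adjusted p = 0.167) and Col8a1 by -0.31 (adjusted p = 0.279). For Col5a1, Col15a1 and Col18a1 the differences were -0.41, -0.53 and -0.81 (adjusted p = 0.466, 0.251 and 0.236). All 8 tested fibrillar genes had negative differences, but TG+MI 3 was the lowest TG+MI array for each. The median deviation of the fibrillar genes was -0.01, 0.08 and -1.45 on the TG+MI arrays, against -0.05, 0.06 and -0.02 on the WT+MI arrays. The median difference over the 31 genes was -0.28, beside 0.09 over all genes. Without TG+MI 3 that median was 0.14.

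The last comparison asks whether infarction went with a different change in transgenic than in wild-type hearts, as the difference (TG+MI minus TG) minus (WT+MI minus WT). Its adjusted p was below 0.05 for 7 collagen genes, all negative, beside 8.74% of all genes (5.73% higher, 3.01% lower). At an unadjusted p below 0.05, 14 were negative and 0 positive. The median was -0.81 over the 31 genes (-0.43 without TG+MI 3) and 0.14 over all genes. The 7 genes were Col8a2, Col12a1, Col4a6, Col18a1, Col5a2, Col16a1 and Col8a1, and of these only Col8a2 and Col12a1 were called whichever array was left out, and Col12a1 was lost under normexp (-0.57, adjusted p = 0.0745). The count was 11 without TG+MI 2, 6 or 7 without TG 3, WT+MI 3 or TG+MI 3, and 2 or 3 without any other array. Col5a2, for example, was -1.42, -1.24 and -2.28 on the TG+MI arrays, against -0.54, -0.97 and -1.35 on the TG arrays. The TG+MI and TG values overlapped, while all 3 WT+MI values lay above all 3 WT values.

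**Figure D4:**
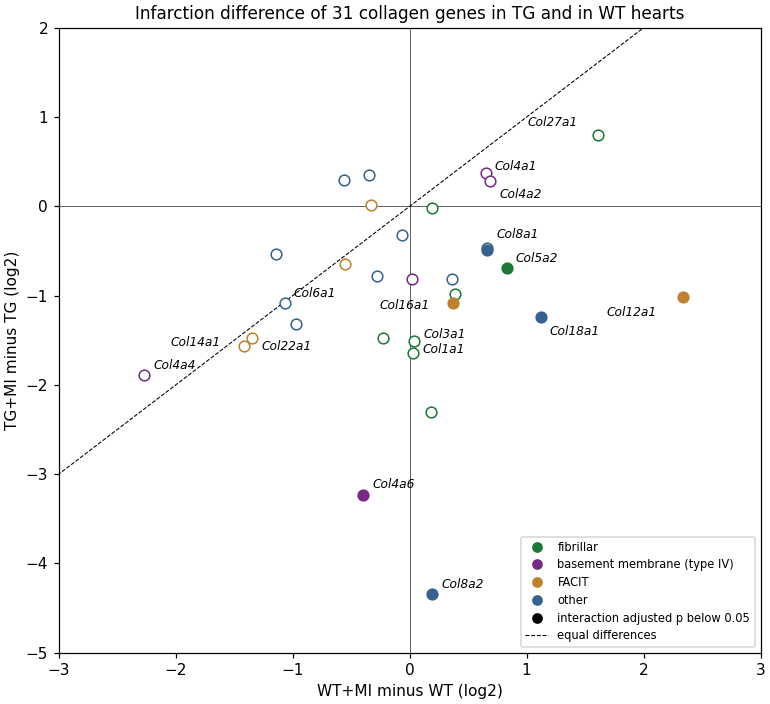
Difference with infarction for each of the 31 tested collagen genes, in wild-type hearts (WT+MI minus WT, horizontal axis, log2) and in transgenic hearts (TG+MI minus TG, vertical axis, log2), with filled points where the difference between them was called. All 7 filled points lie below the dashed line of equal change, with Col8a2 the lowest at -4.34.

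The genes that make, trim, cross-link, bind and degrade collagen were read from lists of the pathway. In WT+MI against WT, 5 of 20 tested biosynthesis genes rose and 2 fell, beside 18.6% of all genes higher and 29.4% lower, or 47.9% together, and nothing particular to the list is read from its counts. The collagen chaperone Fkbp10 and the prolyl hydroxylase subunit P4hb both rose by 0.98, and the glycosyltransferase Colgalt2 fell by 1.77 on the log2 scale. The strongest shifts were in cross-linking and breakdown. Lox, the main lysyl oxidase, was 2.14, 1.45 and 1.16 on the WT+MI arrays, against -1.36, -1.53 and -1.38 on the WT arrays, and rose by 3.00. Loxl4 rose by 2.30 (at least 3.15-fold), but it entered the test through the WT+MI group alone. In all, 3 of 4 tested cross-linking genes rose.

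Of 6 breakdown genes 4 rose and 1 fell. Mmp9, a gelatinase, was 0.79, -0.47 and -0.10 on the WT+MI arrays, against -4.54, -3.95 and -3.60 on the WT arrays, at least 14.4-fold higher. The neutrophil collagenase Mmp8 rose by 3.95 and the collagenase Mmp13 by 1.39, while Mmp2 fell by 0.97. Among the processing enzymes, 2 of 7 rose and 1 fell, with Tll1, a procollagen C-proteinase, at least 2.95-fold higher. Tll1 likewise entered the test through WT+MI alone. Among the receptors 2 of 8 rose and 1 fell, with Itgb1 at 0.61, Ddr1 at 0.58 and Itga1 at -0.45. The called shares of the processing and receptor lists lie below the 47.9% of all genes. The neutrophil marker sum given above moved with Mmp8 and Mmp9, and its part was not tested.

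In TG against WT, 1 gene rose in each of 4 of the lists and 0 fell, beside 1.49% higher and 1.13% lower of all genes: the N-proteinase Adamts2 by 1.29, the collagen-degrading cathepsin Ctsk by 1.05, Loxl2 by 0.72 and Fkbp10 by 0.62. Adamts2 was 4.36, 3.54 and 3.57 on the TG arrays, against 2.47, 2.68 and 2.45 on the WT arrays, and Ctsk was 2.35, 1.70 and 1.79 against 0.88, 0.70 and 1.11. Neither overlapped. In TG+MI against TG these same 2 genes fell, Adamts2 by 0.86 and Ctsk by 1.02, as did the C-proteinase enhancer Pcolce2 and Mmp2, each by 1.25. Over the 5 lists, 8 genes fell and 2 rose in that comparison, beside 3.64% and 5.19% of all genes.

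In TG+MI against WT+MI, 3 of 6 breakdown genes fell, beside 4.39% of all genes, with Mmp9 lower by 2.68, Mmp13 by 2.10 and Mmp8 by 2.0 on the log2 scale. Loxl4, which had entered the test through WT+MI alone, fell by 1.34. Mmp8 was -2.47, -1.13 and -1.02 on the TG+MI arrays, against 1.44, 0.43 and -0.47 on the WT+MI arrays. The neutrophil marker sum was 21.2 to 50.9 on the TG+MI arrays and 142 to 328 on the WT+MI arrays, and its part was not tested. No gene of the biosynthesis, processing or receptor lists was called between these 2 groups, where limma gave 5, 2 and 0 genes at an unadjusted p below 0.05.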

How the data were processed

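Total RNA of 12 mouse heart samples was hybridised to 1-colour (Cy3) Agilent arrays. The deposited files hold each spot's processed signal, a background-corrected intensity on a linear scale made with Agilent Feature Extraction 12.0.3.1, per the file headers, and the probes carry mm9 positions. As a tool, limma is listed in the submitters' processing notes, with no version. A deposited table holds log2 values, scaled and centred by the authors in a way read only from the values. It ranked probes as the arrays did (Spearman correlation of at least 0.999995 with its own array). The same test was run on it as an alternative. There, Col8a1 in TG minus WT and Col18a1 in (TG+MI minus TG) minus (WT+MI minus WT) were not called.

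Here, log2 processed signal was averaged over the spots of a probe, without control and outlier spots, and each array's 75th percentile was subtracted. The brightest probe represented a gene, and a gene was tested if some group had all 3 arrays well above background for it. The test was limma 3.58.1 in R 4.3.3 (lmFit and eBayes, 4 group means over 12 arrays), adjusted by Benjamini-Hochberg over 19761 genes, with a threshold of 0.05, and checked on simulated data. Values are given for every called collagen gene and, whatever their call, for Col1a1, Col1a2, Col3a1, Col4a1, Col4a2, Col5a1, Col6a1, Col8a1, Col12a1, Col14a1, Col15a1 and Col18a1, and for up to 4 called genes per pathway list and comparison, by largest difference. Uncalled values of other members and of second probes were chosen after they were seen. The members and lists were chosen with earlier results of these data known. Alternatives were normexp background correction (offset 50), quantile and median scaling, the deposited table of log2 values, other filters and the mean of a gene's probes. Further ones were the slide or the replicate number as a block, fits of the compared groups alone, and each array left out. Depth does not apply to arrays, whose number limits the precision.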

Additional observations from a re-analysis of the deposited data

Results flagged for a closer look

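For 7 collagen genes the change with infarction differed between transgenic and wild-type hearts by the test of that difference in limma's fit, (TG+MI minus TG) minus (WT+MI minus WT). The values were -4.53 ± 0.37 for Col8a2 (SE, adjusted p = 0.00146), -3.36 ± 0.44 for Col12a1 (adjusted p = 0.0138), -2.82 ± 0.66 for Col4a6 (adjusted p = 0.0389), -2.36 ± 0.64 for Col18a1 (adjusted p = 0.0479), -1.52 ± 0.40 for Col5a2 (adjusted p = 0.0461), -1.45 ± 0.30 for Col16a1 (adjusted p = 0.034) and -1.15 ± 0.27 for Col8a1 (adjusted p = 0.0391). Col8a2 was well above background in the TG hearts only, through which alone it entered the test. Col12a1 was not well above background on any WT array. The sizes for these 2 genes therefore rest on levels known only as bounds. The TG and TG+MI arrays lie partly on different slides. With the slide as a term, Col8a2 alone was called, at -4.04 (adjusted p = 0.0176).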

How the results depend on the processing

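Counts of called collagen genes depended on the setting, and the cause was not tested unless given. Between TG and WT, 6 genes were called. The count was 3 with no filter on dim probes, 3 with genes well above background on all 12 arrays, 3 with the mean of a gene's probes, 11 on slide 1 and 12 from the 2 groups alone, and it ranged from 3 to 10 when 1 array was left out (3 without WT 1, WT 2, WT 3 or TG 1, and 10 without TG+MI 3). Normexp correction gave 6 calls, without Col12a1, and a median difference of 0.39, against 0.74. Between TG+MI and TG, 11 were called. The count was 7 with genes above background everywhere, 6 from the 2 groups alone, 1 with the slide as a term, 0 on slide 2, where TG 3 is the lone TG array, and 4 to 15 with 1 array left out (4 without TG 1). Between TG+MI and WT+MI, 1 was called. The count was 0 under normexp, with either filter change, with the slide as a term and from the 2 groups alone, 2 with median scaling, 3 with the mean of probes and 4 with the slide as a random block. It was 0 to 2 with 1 array left out (2 without WT+MI 3 or TG 1, 1 without TG 3 and 0 without any other), and 0 without both TG 1 and TG+MI 3, a choice made after seeing the data. There the called gene, Col14a1, turned to -0.10 under normexp. Between WT+MI and WT, 13 were called, 6 among genes above background everywhere and 10 to 16 with 1 array left out. For the difference of the infarction effects, 7 were called, 4 with median scaling, 2 with no filter, 1 with the slide as a term, and 2 to 11 with 1 array left out (11 without TG+MI 2, 7 without TG 3, 6 without WT+MI 3 or TG+MI 3, and 2 or 3 without any other).

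Same-numbered samples of different groups showed no shared deviation (correlations from -0.26 to 0.12, against -0.18 to 0.25 for other pairs). Such values, from 3 arrays a group, cannot settle whether the numbers pair samples. With the replicate number as a block the counts were 13 between WT+MI and WT, 4 between TG and WT, 1 between TG+MI and WT+MI (another gene than Col14a1), 11 between TG+MI and TG, and 7 for the difference of effects. Called and uncalled values of dim genes such as Col8a2 and Col12a1 are limited by background, and their folds are lower bounds.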
